A study of Mus musculus with 6 samples.

Results

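The WAP four-disulfide core (WFDC) genes were followed in mouse embryonic stem (ES) cells grown with or without vitamin C. The 8 members are Wfdc1, Wfdc2, Wfdc3, Wfdc5, Wfdc12, Wfdc15a, Wfdc15b and Slpi, and all 8 were among the 19938 genes tested. A member was a gene of that list measured by a probe set with exactly 1 gene symbol. Probe sets were selected on their mean signal over the 6 arrays, the highest mean being taken where a gene had several, which among the members held for Wfdc3 alone. The family itself was chosen from the rise of Wfdc15a, already known to be among the largest of this comparison. Its difference, and any count that includes it, is therefore a description.

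The study grew Oct4-GiP ES cells, which carry a green fluorescent protein and puromycin-resistance cassette driven by Oct4 regulatory sequences. Both groups were kept on 0.1% gelatin in N2B27 medium with 1000 U/ml LIF, 1 μM of the MEK inhibitor PD0325901 and 3 μM of the GSK3β inhibitor CHIR99021. The 3 vitamin C cultures also received 200 μg/ml L-ascorbic acid 2-phosphate for 72 hours, and the 3 untreated cultures received none. All samples came from 1 reporter line, and RNA of each culture, a biological replicate per the series' design text, was hybridised to 1 array.

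WFDC proteins are small secreted proteins built from the whey acidic protein (WAP) domain, a compact fold held together by disulfide bonds between conserved cysteines. Several of them inhibit serine proteases or kill bacteria, and they are best known from mucosal surfaces, the epididymis, the skin and milk. Most mouse members lie side by side in a locus on chromosome 2, intermingled with seminal vesicle secretory genes and Kunitz-type inhibitor genes, whereas Wfdc1 lies on chromosome 8.

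The promoter windows of Wfdc15a, of the genes on either side of it, Wfdc12 and Wfdc15b, and of Wfdc2 are shown because the results turn on these genes and because the study's title concerns DNA demethylation, which acts on CpG dinucleotides. Each window runs from 250 bases before to 50 bases after a RefSeq transcription start in build GRCm38.p6, is written 5′ to 3′ along the gene's strand, and has its CpG dinucleotides in capitals. The Wfdc12 window is chr2:164190509-164190808, that of Wfdc15a chr2:164200068-164200367 and that of Wfdc15b chr2:164221614-164221913, all on the minus strand. The Wfdc2 window is chr2:164562465-164562764 on the plus strand, and RefSeq lists a further start 1 base downstream.
Wfdc12: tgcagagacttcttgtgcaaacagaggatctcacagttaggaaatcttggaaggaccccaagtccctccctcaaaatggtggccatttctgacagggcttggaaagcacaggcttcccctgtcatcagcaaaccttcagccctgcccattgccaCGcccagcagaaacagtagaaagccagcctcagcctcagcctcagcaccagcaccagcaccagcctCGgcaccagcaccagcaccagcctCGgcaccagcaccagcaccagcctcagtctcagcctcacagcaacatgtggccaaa
Wfdc15a: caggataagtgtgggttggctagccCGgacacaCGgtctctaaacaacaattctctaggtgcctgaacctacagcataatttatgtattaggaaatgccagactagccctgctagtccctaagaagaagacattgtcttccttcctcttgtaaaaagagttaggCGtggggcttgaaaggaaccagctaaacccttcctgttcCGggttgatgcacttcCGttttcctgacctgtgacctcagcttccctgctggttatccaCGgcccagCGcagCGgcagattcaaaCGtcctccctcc
Wfdc15b: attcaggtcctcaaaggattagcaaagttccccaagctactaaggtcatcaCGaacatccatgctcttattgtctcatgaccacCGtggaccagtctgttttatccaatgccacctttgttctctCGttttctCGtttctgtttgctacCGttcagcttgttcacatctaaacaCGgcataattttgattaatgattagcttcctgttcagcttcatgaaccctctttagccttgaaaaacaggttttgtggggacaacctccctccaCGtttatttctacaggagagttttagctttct
Wfdc2: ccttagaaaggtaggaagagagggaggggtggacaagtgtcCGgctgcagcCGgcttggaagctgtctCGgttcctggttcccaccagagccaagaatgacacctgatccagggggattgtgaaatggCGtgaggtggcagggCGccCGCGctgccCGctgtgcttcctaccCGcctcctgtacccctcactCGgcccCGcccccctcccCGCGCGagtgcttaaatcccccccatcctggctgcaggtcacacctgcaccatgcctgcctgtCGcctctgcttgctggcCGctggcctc

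Wfdc15a was far higher with vitamin C, Wfdc2 fell, and the other 6 members did not pass the test. The test was limma fitted over all genes, with a call at a Benjamini-Hochberg adjusted p under 0.05. It called 13.2% of all genes, 5.75% as higher and 7.40% as lower, and the groups were free of overlap for 35.0% of all genes, with all 3 vitamin C arrays higher for 16.8% and lower for 18.2%. At an unadjusted p under 0.05, 2736 of the 19938 genes were higher and 3041 lower. Among the 8 members 1 rose and 1 fell, and the same pair were the members whose groups did not overlap. Since the members were proposed with earlier results of these data known, and Wfdc15a with its rise known, nothing is read from that share. The median log2 difference was -0.0043 over the 8 members, -0.01 over the 7 members without Wfdc15a and 0.01 over all genes.

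**Figure D1:**
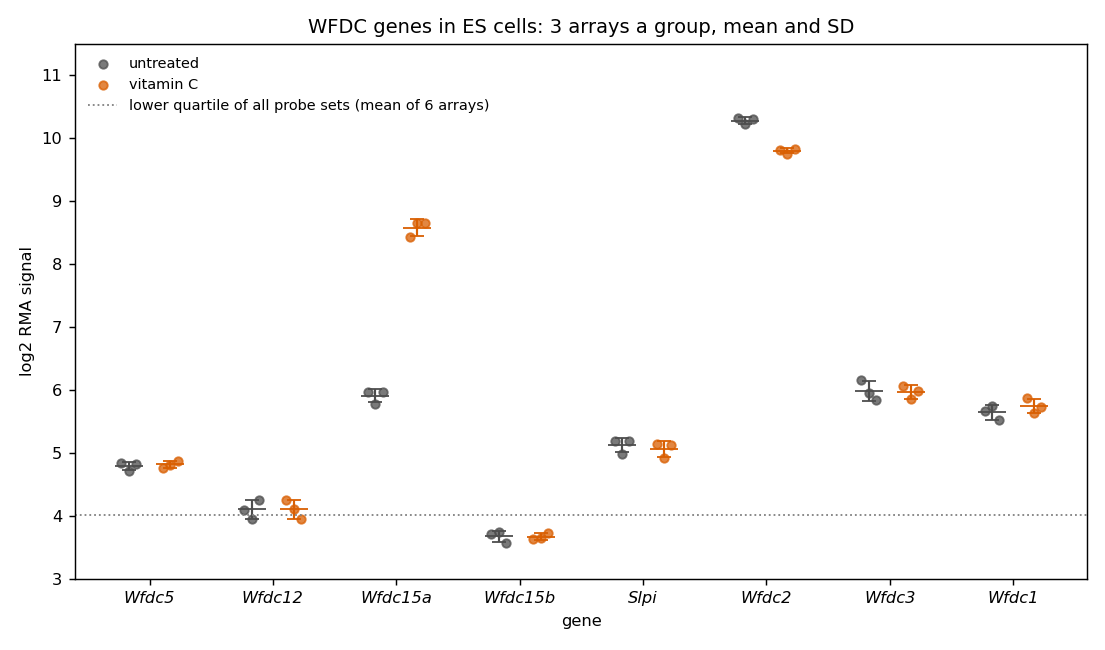
The log2 RMA signal of the 8 members (x axis, in chromosome 2 order with Wfdc1 last) on each of 3 untreated and 3 vitamin C arrays is plotted as points, with the group mean and SD as bars and the lower quartile of all probe sets as a dotted line. Wfdc15a goes from a mean of 5.91 to 8.58 and Wfdc2 from 10.28 to 9.80 without overlap, and the groups of the other 6 overlap; heights of different genes cannot be compared.

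Wfdc15a, a single-WAP-domain gene about which little is known, had log2 signals of 5.97, 5.79 and 5.97 on the untreated arrays and of 8.43, 8.66 and 8.66 on the vitamin C arrays. All 3 vitamin C arrays were high, and the lowest of them lay 2.45 above the highest untreated array. The arrays of one group spanned 0.19 (untreated) and 0.24 (vitamin C). The log2 means were 5.91 ± 0.11 and 8.58 ± 0.13 (SD, n = 3 each), a log2 difference of 2.67 ± 0.09 (SE) with a 95% interval from 2.46 to 2.89. On the linear scale the signal was 6.37-fold higher, with an interval from 5.49 to 7.39, and this was the ninth largest rise (rank 9) among the 19938 genes. With any 1 array left out the log2 difference stayed between 2.61 and 2.75. The untreated signal lay above the lower quartile of every array, which was between 3.99 and 4.05. In bulk RNA, more cells with the transcript and more transcript per cell cannot be told apart.

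The genes on either side of Wfdc15a did not pass the test. Wfdc12 encodes an antibacterial single-WAP-domain protein and showed log2 signals of 4.09, 3.96 and 4.26 without and 4.26, 4.10 and 3.95 with vitamin C. Its groups overlapped almost completely, and the log2 difference was 0.00 ± 0.11 (SE, limma adjusted p = 0.998). Wfdc15b, on the other side, encodes another antibacterial protein of this kind and gave 3.71, 3.74 and 3.58 without against 3.63, 3.65 and 3.73 with vitamin C. Here too the groups overlapped, with a log2 difference of -0.01 ± 0.07 (SE, limma adjusted p = 0.947). The 95% intervals ran from -0.25 to 0.25 for Wfdc12 and from -0.17 to 0.15 for Wfdc15b, or 0.842- to 1.19-fold and 0.886- to 1.11-fold. Wfdc15b lay below the lower quartile of all probe sets on all 6 arrays and Wfdc12 on 2 of 6. Whether either was above background was not tested, and arrays in general understate changes of probe sets this dim.

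Wfdc2, whose product HE4 is a secreted protein of epididymis and other epithelia and a serum marker of ovarian cancer, fell. Its log2 signals were 10.32, 10.22 and 10.30 without vitamin C and 9.81, 9.76 and 9.84 with it. The 3 vitamin C arrays were the low ones, and the highest of them lay 0.38 below the lowest untreated array, against spans of 0.10 and 0.081 within the groups. The log2 means of 10.28 ± 0.053 and 9.80 ± 0.042 (SD, n = 3 each) differed by -0.48 ± 0.06 (SE, limma adjusted p = 0.00386). The untreated level was 1.39-fold the vitamin C level. The call held with any 1 array left out, at limma adjusted p-values from 0.0120 to 0.0197. Wfdc2 was the 1 member above the upper quartile of all probe sets on every array.

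Of 12 epithelial marker genes measured in the same arrays, 5 fell, 1 rose and 6 did not pass, with a median log2 difference of -0.26. That is a called share of 50% beside 13.2% of all genes. Their mean log2 signal was 6.73 to 6.83 on the untreated and 6.51 to 6.61 on the vitamin C arrays. None was listed at 0, and none lay below the lower quartile on all arrays. Cldn4, a tight-junction gene, fell by 0.67, the keratin gene Krt8 fell by 0.58 and the adhesion gene Epcam fell by 0.43 on the log2 scale, with limma adjusted p-values of 0.00194, 0.00414 and 0.00924. The member that rose was Grhl2, an epithelial transcription factor gene named after its values were seen, by 0.61 ± 0.13 (SE, limma adjusted p = 0.0214). Its call was lost without untreated replicate 1 (adjusted p = 0.0555), 2 (0.0503) or 3 (0.0694) or vitamin C replicate 2 (0.0632) or 3 (0.0511). The part of these markers in the fall of Wfdc2 was not tested.

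Slpi, the secretory leukocyte protease inhibitor of neutrophil elastase and cathepsin G, gave log2 signals of 5.19, 4.99 and 5.18 without and 5.15, 4.92 and 5.12 with vitamin C. The groups overlapped, and the log2 difference of -0.06 ± 0.09 (SE, limma adjusted p = 0.727) had a 95% interval from -0.27 to 0.15. Among 12 markers of neutrophils and macrophages, cells in which Slpi is well known, 1 fell, none rose and 11 did not pass by limma (2 higher at an unadjusted p under 0.05; median log2 difference 0.12). Over all 19938 genes, 2736 were higher at an unadjusted p under 0.05. The called share of these markers was 8.33% beside 13.2% of all genes. Their mean log2 signal was 4.42 to 4.53 without and 4.49 to 4.58 with vitamin C. Of these markers 4 lay below the lower quartile on every array, and none was listed at 0.

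Wfdc1, which encodes the growth-inhibitory stromal protein ps20, gave 5.67, 5.75 and 5.52 without and 5.87, 5.64 and 5.72 with vitamin C. Its groups overlapped, and the log2 difference was 0.10 ± 0.09 (SE, limma adjusted p = 0.522; 95% interval -0.11 to 0.31). Wfdc5 gave 4.84, 4.72 and 4.82 without and 4.77, 4.81 and 4.88 with it. That is a log2 difference of 0.03 ± 0.07 (SE, limma adjusted p = 0.842; 95% interval -0.13 to 0.18), again between overlapping groups.

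Wfdc3, a gene with several WAP domains, was measured by 2 probe sets. The brighter gave log2 signals of 6.15, 5.96 and 5.84 without and 6.07, 5.85 and 5.99 with vitamin C, a log2 difference of -0.01 ± 0.10 (SE, limma adjusted p = 0.955). The dimmer, which the choice of probe set did not use, gave 4.79, 4.53 and 4.40 against 4.72, 4.55 and 4.83. Its log2 difference was 0.13 ± 0.13 (SE, adjusted p = 0.630 from limma over all 35557 probe sets, of which 5.95% passed). The groups overlapped for both probe sets. In the fit over all probe sets the 95% intervals were -0.27 to 0.25 for the brighter and -0.19 to 0.44 for the dimmer.

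The 95% intervals of the 6 members that did not pass lay far below the difference measured for Wfdc15a. For the probe sets used, the widest, that of Wfdc12, covers 0.842- to 1.19-fold. The highest upper bound among these 6 was 1.24-fold, for Wfdc1. The dimmer Wfdc3 probe set, not used here, had a wider interval in the fit over all probe sets, up to a log2 difference of 0.44. These intervals bound the array signal, which for the dim Wfdc12 and Wfdc15b may understate a change of the transcript.

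Outside the members, 15 more WAP-domain genes were measured, among them the milk protein gene Wap, the sperm-surface protein gene Eppin and Wfikkn1 and Wfikkn2, which encode myostatin-binding proteins. Of these 15 genes 1 fell, none rose and 14 did not pass by limma (1 higher, Wfdc11, at an unadjusted p under 0.05), with a median log2 difference of -0.02 and a range from -0.44 to 0.18. Higher at that unadjusted threshold were 2736 of all 19938 genes. The called share of the 15 was 6.67% beside 13.2% of all genes, and 4 of the 15 lay below the lower quartile on every array. The gene that fell was Wfdc10, with log2 signals of 6.17, 6.39 and 6.45 without and 6.02, 5.85 and 5.82 with vitamin C. The groups did not overlap, and the log2 difference was -0.44 ± 0.09 (SE, limma adjusted p = 0.0248). That call was lost without untreated replicate 2 (adjusted p = 0.0773) or 3 (0.0782) or vitamin C replicate 2 (0.0735) or 3 (0.0802), while the difference stayed between -0.52 and -0.38. Wfdc11, the next gene of the locus, was higher on all 3 vitamin C arrays (6.51, 6.36 and 6.45 against 6.31, 6.28 and 6.18) but did not pass (log2 difference 0.18 ± 0.07 SE, limma adjusted p = 0.132). It is named here after its values were seen.

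**Figure D2:**
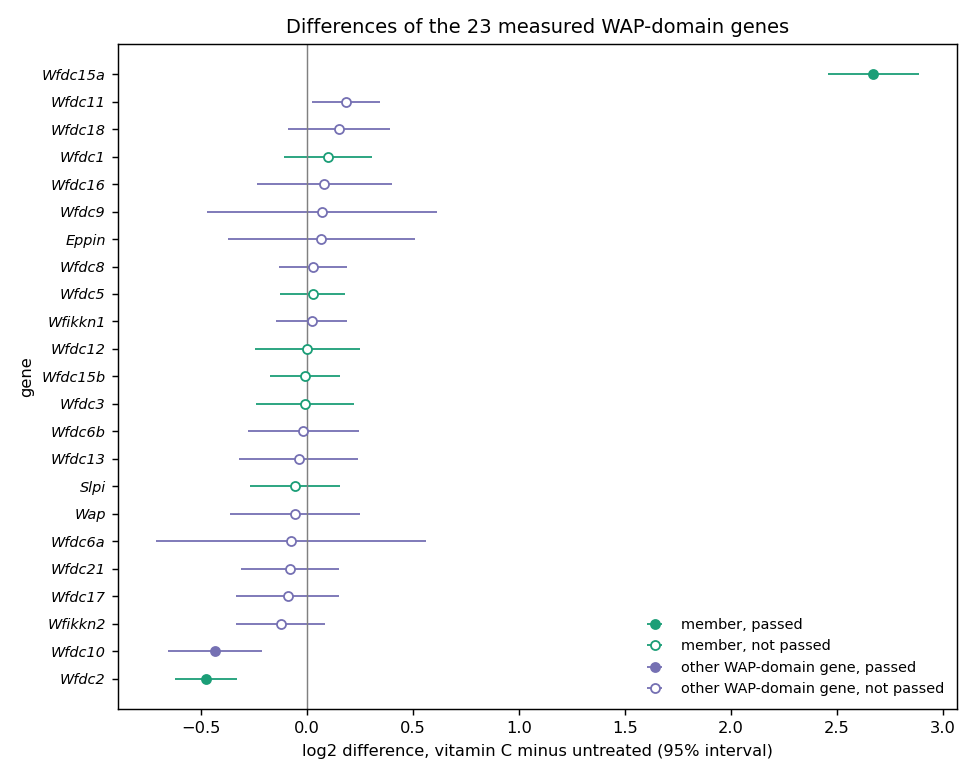
The log2 difference, vitamin C minus untreated, of the 23 measured WAP-domain genes (y axis) is drawn with its 95% interval from limma, filled where the adjusted p was under 0.05. Wfdc15a stands at 2.67, Wfdc10 and Wfdc2 at -0.44 and -0.48, and the other 20 genes did not pass.

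None of the members' chromosomal neighbours was called higher by limma. For each member the 5 measured genes before and the 5 after it were taken in the order of the mouse gene table, with other members passed over, which gave 43 genes. Of these, 3 fell, 40 did not pass and none rose (1 was higher at an unadjusted p under 0.05). Over all genes 5.75% rose and 7.40% fell, and 2736 of 19938 were higher at that unadjusted threshold. Among the 43 neighbours, 7 lay below the lower quartile on every array. Some of the 15 other WAP-domain genes were also neighbours, and without them 36 remained, of which 2 fell and none rose. In the stretch of chromosome 2 between Wfdc5 and Wfdc3, 25 genes other than members were measured. By limma 2 of them fell and none rose (1 higher at an unadjusted p under 0.05, median log2 difference 0.07). On every array 8 of the 25 lay below the lower quartile. All 6 measured seminal vesicle secretory genes lay between Wfdc15b and Slpi and did not pass limma's test, and 0 of the 6 had an unadjusted p under 0.05. Their log2 differences ran from -0.10 for Svs6 to 0.36 for Svs3b (SE 0.17, limma adjusted p = 0.220), and 4 of the 6 lay below the lower quartile on every array.

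**Figure D3:**
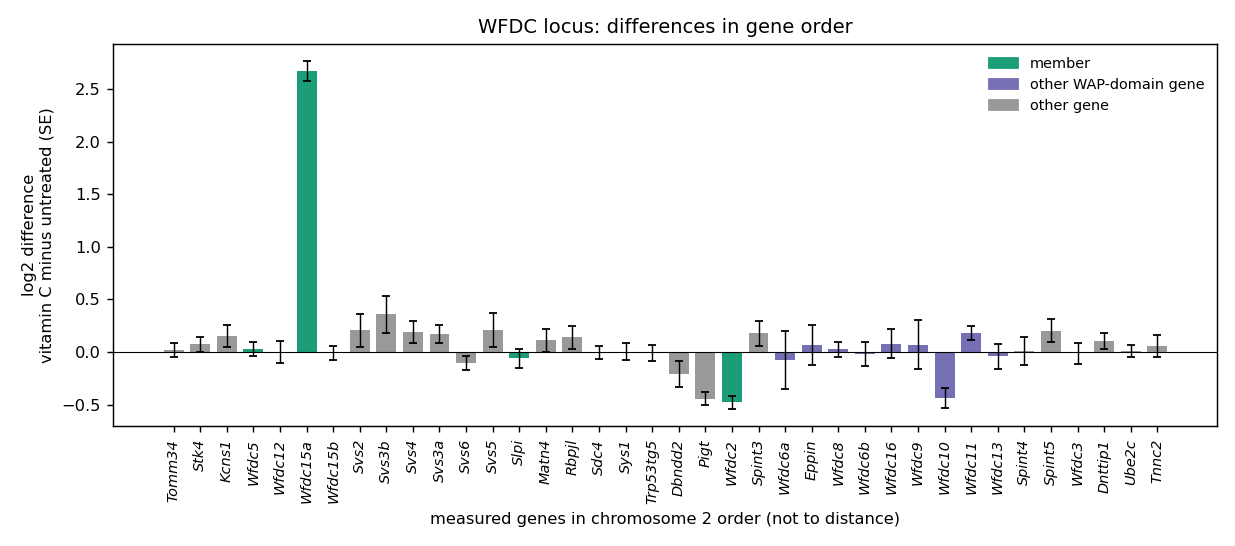
The log2 difference, vitamin C minus untreated, is drawn as bars with the SE for 38 measured genes in their order on chromosome 2 (x axis, not to distance), from the third gene before Wfdc5 to the third after Wfdc3. Wfdc15a stands at 2.67 between Wfdc12 at 0.00 and Wfdc15b at -0.01, and Pigt, Wfdc2 and Wfdc10 are the called falls.

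The measured gene next to Wfdc2 was also called lower. Pigt, which encodes a subunit of the enzyme that attaches glycosylphosphatidylinositol anchors to proteins, had log2 signals of 9.89, 9.95 and 9.92 without and 9.48, 9.44 and 9.52 with vitamin C. The vitamin C arrays were again the low ones, without overlap, and the log2 difference was -0.44 ± 0.06 (SE, limma adjusted p = 0.00436). On the other side of Wfdc2, the Kunitz inhibitor gene Spint3 differed by 0.18 ± 0.12 (SE, limma adjusted p = 0.373). The third called neighbour besides Pigt and Wfdc10 was Cotl1, a gene for an actin-binding protein near Wfdc1, with a log2 difference of -1.06 ± 0.08 (SE, limma adjusted p = 0.000620). The genes directly before and after Wfdc1 itself, Kcng4 and Atp2c2, differed by 0.08 ± 0.14 and 0.09 ± 0.07 (SE) and did not pass.

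The windows printed above differ in CpG content as follows. The Wfdc15a window held 9 CpG dinucleotides at a GC content of 50.7%, that of Wfdc15b 7 at 42.3% and that of Wfdc12 3 at 57.3%. The Wfdc2 window was the richest, with 16 at 65.3%. RefSeq windows were found for 6 of the 8 members, all but Wfdc1 and Wfdc5, and those of Wfdc3 and Slpi held 3 and 2. Over 27025 windows, 1 a gene, the median was 7, so that 46.2% of windows held at least as many as Wfdc15a and 33.5% at least as many as Wfdc2. Whole-window alignments gave 46.1% identity between Wfdc15a and Wfdc12 and 47.2% between Wfdc15a and Wfdc15b. Both lay inside the 41.7% to 50.2% of all pairs among the 6 members with windows. Windows of other genes were not aligned, so whether these identities exceed those of unrelated windows was not tested. DNA methylation of the members' windows was not analysed here.

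**Figure D4:**
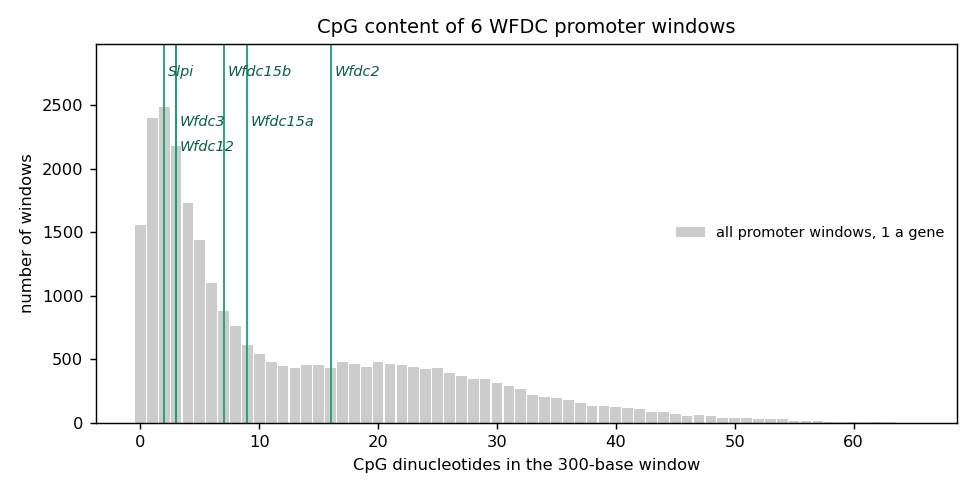
The number of CpG dinucleotides in the 300-base promoter window (x axis) is plotted as a histogram of 27025 windows, 1 a gene, with a line for each of 6 members. Slpi, Wfdc3 and Wfdc12 stand at 2, 3 and 3, Wfdc15b and Wfdc15a at 7 and 9 and Wfdc2 at 16.

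A few short motifs were searched on both strands of these windows, chosen after the windows had been seen. Wfdc15a held 1 GCGTG, a core that hypoxia-inducible factors can bind, from base -87 (positions count from the start at 1, with no 0). On the opposite strand it held 1 CCGGAA, the only spelling of ETS factor sites that was searched, from base -50. GCGTG and CCGGAA are found in 32.5% and 15.2% of all windows. Wfdc2, which fell, and Wfdc3 and Wfdc12, which did not pass, also held GCGTG, so the motif was present in 4 of the 6 windows. The windows of Wfdc15b and Slpi, which did not pass either, lacked it. A link between the motif and the differences was not tested. The E-box CACGTG, present in 7.24% of all windows, was found in the Slpi window. It contains the other core that hypoxia-inducible factors can bind, ACGTG, which 19.7% of all windows held and which was also found in the Wfdc15b window. None of the 6 windows held the E2F-type motif GCGGGA (20.0% of all windows). The same was true of the TATA-box letters TATAAA, which are present in 14.2% of all windows, and of the cyclic-AMP response element TGACGTCA (1.88%). A match describes the letters in the window only.

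The genes whose profile was most like that of Wfdc15a were named by the smallest root-mean-square distance between gene-centred log2 profiles over the 6 arrays, passing over predicted genes. They were Rhox13 (distance 0.171), Aspa (0.185), Magea6 (0.25), Dazl (0.266) and Tuba3b (0.295), with log2 differences of 2.42, 2.98, 2.86, 2.21 and 2.23. The likeness follows the same contrast that made Wfdc15a stand out and is a description. Beside this, of 13 fibroblast markers 8 were called higher, 1 lower and 4 neither way (median log2 difference 0.47). The called share of the fibroblast markers was 69.2% beside 13.2% of all genes. Their mean log2 signal was 5.38 to 5.50 on the untreated and 5.97 to 6.02 on the vitamin C arrays, 2 of them lay below the lower quartile on all arrays, and none was listed at 0. Of 10 primitive endoderm markers 4 rose and 6 did not pass, a called share of 40%. Their mean log2 signals were 6.19 to 6.24 without and 6.46 to 6.47 with vitamin C. The part of either cell type in the level of Wfdc15a was not tested.

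Other families of protease inhibitors were taken for comparison. Of 23 Kunitz and Kazal inhibitor genes 1 rose, 4 fell and 18 did not pass (median log2 difference -0.01). The called share was 21.7% beside 13.2% of all genes, and 10 of the 23 lay below the lower quartile on every array. Spint1, which encodes an inhibitor of the membrane protease matriptase, rose by 0.43 ± 0.06 (SE, limma adjusted p = 0.00430), and its relative Spint2 fell by 0.26 ± 0.06 (SE, limma adjusted p = 0.0313). Reck, a membrane-anchored regulator of metalloproteases with Kazal motifs, fell by 0.40 ± 0.06 (SE, limma adjusted p = 0.00781), and Aplp2, a relative of the amyloid precursor protein, fell by 0.36 ± 0.08 (SE, limma adjusted p = 0.0260). Spint2 no longer passed once any single array was removed (adjusted p = 0.0502 to 0.0967). That of Aplp2 was lost without untreated replicate 1 (0.0635), 2 (0.0624) or 3 (0.0837) or vitamin C replicate 1 (0.0830) or 3 (0.0790).

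Of 42 serpin genes, the other large family of serine protease inhibitors, 2 rose, 1 fell and 39 did not pass (median log2 difference 0.04), and 23 lay below the lower quartile on every array. The called share of the serpins was 7.14% beside 13.2% of all genes. Serping1, the complement C1 inhibitor gene, rose by 1.48 ± 0.15, and Serpinf1, which encodes pigment epithelium-derived factor, rose by 0.50 ± 0.08 (SE, limma adjusted p = 0.00141 and 0.010). Serpina1c, one of several close copies of the α1-antitrypsin gene that probes may not tell apart, fell by 0.72 ± 0.19 (SE, limma adjusted p = 0.0477). Serpina1c, too, no longer passed without any single array (adjusted p = 0.0604 to 0.126), and the gene was dim, with means of 3.42 and 2.70.

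Serine proteases include the enzymes that such inhibitors act on. Of the 45 tested, 5 rose, 2 fell and 38 did not pass (median log2 difference 0.04), a called share of 15.6% beside 13.2% of all genes. Htra1, a secreted protease gene, rose by 1.22 ± 0.17, St14, which encodes matriptase, by 0.46 ± 0.06 and Plau, which encodes urokinase, by 0.41 ± 0.06 (SE, limma adjusted p from 0.00515 to 0.00704). Plau was dim, with means of 3.70 without and 4.11 with vitamin C, and lay below the lower quartile on 3 arrays. Klk8, a kallikrein-related peptidase gene, fell by 0.48 ± 0.09 and the prothrombin gene F2 fell by 0.52 ± 0.13 (SE, limma adjusted p = 0.0129 and 0.0436). The F2 call was lost without untreated replicate 2 (adjusted p = 0.114) or 3 (0.121) or vitamin C replicate 2 (0.115) or 3 (0.124).

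Of 10 ES cell markers, 9 lay above the upper quartile of all probe sets on every array, among them Pou5f1 (11.26 without, 11.14 with vitamin C) and Nanog (11.55 and 11.84). Limma called 3 higher and 1 lower and 6 did not pass, a called share of 40% beside 13.2% of all genes. Nanog and Zfp42 rose by 0.29 and 0.30 on the log2 scale (limma adjusted p = 0.0168 and 0.0214). Lin28a fell (log2 difference -0.52, limma adjusted p = 0.0151), and Pou5f1 did not pass (0.235). With 1 array left out, the limma adjusted p reached 0.0577 for Nanog, 0.0688 for Zfp42 and 0.0529 for Lin28a. Arrays of one group correlated at 0.995 to 0.996 across genes and arrays of different groups at 0.989 to 0.990, and no array stood apart.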

How the data were processed

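RNA of 3 untreated and 3 vitamin C cultures was measured on 1-colour Affymetrix arrays. The deposited values are read as log2 signals per probe set from their range, and RMA is named in the submitters' processing notes; the software and its version: not given in the sources used here. RMA in general corrects background, quantile-normalizes and summarises probes, so a shift shared by all genes would not show. No detection calls were used, and precision is limited by the number of arrays.

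Of 35557 probe sets, 21789 had 1 symbol, 1621 several and 12147 are unnamed here. Of the 19938 genes 19855 matched the GRCm38.p6 gene table by ID, and 0 symbols changed. Vitamin C was compared with untreated, unpaired, by limma 3.58.1 in R 4.3.3, with Benjamini-Hochberg adjustment over all genes and intervals of 95%. Members and lists were chosen with earlier results of these data known. Named genes were all members, up to 4 called genes a list by smallest p and those against its majority, called neighbours, the 5 closest profiles to Wfdc15a, Pou5f1 and Nanog; of the marker lists only those beside a result are named. No set test was run. Data were simulated for this comparison over 19938 genes with independent normal noise and 200 changed genes per run. There, 87.6% of 2-fold and 60.0% of 1.5-fold changes were called and 4.24% of calls were false. These shares belong to that setting, which changed fewer genes than the 2623 called in the data. Promoter windows (RefSeq) were compared with Biopython 1.88, and figures drawn with matplotlib 3.10.9. Alternatives changed the moderation, normalization, dim-gene filter, probe-set handling, weights, threshold, block and arrays.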

Additional observations from a re-analysis of the deposited data

How the results depend on the processing

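Wfdc15a and Wfdc2 passed the limma test and kept their direction under all 16 alternatives tried, at log2 differences from 2.61 to 2.75 and from -0.52 to -0.45. The alternatives are refits of the same arrays. Wfdc15a was chosen for its rise in them, so its passing is a description of how its value depends on the processing. The other 6 members passed under none of those run for them, while the small differences of Slpi, Wfdc3, Wfdc5, Wfdc12 and Wfdc15b changed sign in some. The count of called members was 2 throughout, and the members' median stayed between -0.05 and 0.03. Wfdc15b was not tested with dim genes filtered out, and neither was Wfdc12. Over all genes, 2623 calls became 4151 with trended and robust moderation, 1545 without moderation (the cause was not tested) and 901 at the stricter threshold of 0.01. Leaving out 1 array, with fewer samples in the fit, gave 1483 to 1721 calls. The share of calls that were higher, 43.7%, was 32.1% with arrays centred on their median. The labels state no pairing of the replicates. Same-number correlations of the deviations were 0.052, 0.0096 and -0.024, and the same number was the best partner for replicates 1 and 2 but not for 3. The replicate block lowered the calls to 1723. Under it Wfdc2 passed (limma adjusted p = 0.0179) and Wfdc10 did not (0.0727). With 3 arrays a group and no detection calls, dim members limit what can be seen.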
